A study of Mus musculus with 10 samples.

Results

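The gene starts of 10 piRNA pathway genes were examined in mouse spermatozoal DNA: Piwil1, Piwil2, Piwil4, Tdrd1, Tdrd5, Tdrd6, Tdrd9, Mov10l1, Mael and Asz1. Every CpG within 1 kb of the GENCODE gene start (mm10) was taken, with the reads of both strands summed and at least 10 reads in an animal. Of the 10 genes, 9 had a measured CpG, and 8 had 3 or more CpGs measured in all 10 animals. The windows held 617 CpGs in the reference sequence, of which 237 were measured in at least 1 animal and 173 in all 10 animals. The series as a whole had 904364 CpGs measured in all 10 animals and 13213 protein-coding gene starts with 3 or more of them.

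piRNAs are small RNAs of germ cells that guide PIWI proteins to transposon transcripts. The PIWI proteins work in cytoplasmic granules close to mitochondria, where Tudor domain proteins, RNA helicases and mitochondrial scaffold proteins help to make piRNAs and to keep transposons silent. In foetal male germ cells the nuclear branch of the pathway directs new DNA methylation to transposons. The genes of the pathway are themselves expressed almost exclusively in germ cells, and in somatic cells many of their CpG-rich promoters are methylated.

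DNA methylation had been measured by reduced representation bisulfite sequencing (RRBS), in which DNA is cut at CCGG by MspI, short fragments are selected, and unmethylated cytosines are converted so that they are read as thymine. The animals were C57Bl/6 males and the cells were spermatozoa from the epididymis. In the P-generation, decitabine (5-aza-2′-deoxycytidine, a cytidine analogue that traps DNA methyltransferases) was injected intraperitoneally in 3 animals (D10, D11 and D13) at a dose of 0.1 mg/kg, on 3 occasions a week over 7 weeks, starting when the mice were 7 weeks old, and 2 vehicle-control animals (C8 and C14) received 7.5% DMSO in PBS, the solvent that the decitabine treated animals received too. The F3-generation comprised untreated male descendants, 2 of vehicle-control animals (F3C9 of C8, F3C30 of C14) and 3 of decitabine treated animals (F3D1 and F3D31 of D10, F3D7 of D11), by the study's own account, so that 2 of the 3 shared an ancestor. Each library was 1 animal, and the F3 animals are descendants of P animals that are in the comparison themselves.

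The summed coverage of CpG cytosines was between 48903817 and 115158278 reads per animal, with a median of 28 to 63 reads for cytosines with at least 10 reads. In the piRNA gene windows, 182 CpGs were measured in C8 and 213 to 229 in each of the other animals. As a check of the cell type, 9 starts of maternally methylated imprinted genes were read, which are unmethylated in spermatozoa and carry methylation on the maternal allele in somatic cells. Snrpn and Mest had 0 CpGs shared by all animals, and Peg10 and Sgce shared the same CpGs and were counted as 1 start. The median over the remaining 6 starts was 6.6% to 15.4% in C8 and C14, 12.0% to 14.7% in D10, D11 and D13, 7.6% to 13.9% in the F3-generation of vehicle controls and 8.4% to 11.5% in the F3-generation of decitabine treated animals. The only values listed at 0 were those of Kcnq1ot1 and Airn in C8. The starts were therefore not free of methylated reads in these libraries, and these values are set beside the piRNA genes again further on.

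What RRBS could read differed between the genes. Piwil4, which encodes the nuclear PIWI protein MIWI2 (start chr9:14740733), had 29 CpGs but only 2 CCGG sites in its window, and no CpG was measured, so no methylation level can be given. Piwil1, the PIWI protein MIWI of meiotic and haploid cells (start chr5:128702524), was represented by 3 CpGs in an intron 752 to 817 bp downstream of the GENCODE start, and the RefSeq start lies 33722 bp from the GENCODE start. Mov10l1, the RNA helicase of piRNA biogenesis (start chr15:88982909), had 1 CpG shared by all animals, in an intron 754 bp downstream. For these genes the values do not describe the promoter in the narrow sense.

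The other windows were read closer to the start. In Piwil2, the PIWI protein MILI (start chr14:70429383), the 5 shared CpGs lay 175 to 16 bp upstream. In Mael, a protein of the germ cell granules needed for transposon silencing (start chr1:166238747), 15 shared CpGs ran from 26 bp upstream to 78 bp downstream, 5 of them upstream and 10 in the 5′ UTR. In Asz1, a scaffold protein of the outer mitochondrial membrane (start chr6:18109061), 6 shared CpGs ran from 115 bp upstream to 33 bp downstream. Tdrd9, a Tudor protein and helicase that partners MIWI2 (start chr12:111971559), had 5 shared CpGs in a coding exon. Tdrd1, which binds MILI through its Tudor domains (start chr19:56826209), had 21, with 13 in the 5′ UTR and 8 in an intron. Tdrd5 (start chr1:156303664) and Tdrd6 (start chr17:43630299), Tudor proteins of the chromatoid body, had the most, with 64 and 53 shared CpGs. No other protein-coding gene started in any of the 10 windows.

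Stretches of 5 genes are shown because their CpGs carry the intermediate or high levels described next. They are read 5′ to 3′ on the strand of the gene from the GRCm38 sequence, and capitals mark the CpGs measured in at least 1 animal. The stretch of Mael is chr1:166238748-166238950, 203 to 1 bp upstream (12 of 16 CpGs measured), and that of Asz1 is chr6:18109062-18109181, 120 to 1 bp upstream (9 of 11). Those of Tdrd9 (chr12:111971748-111971863, coding exon, 6 of 7), Tdrd1 (chr19:56826475-56826558, intron, 8 of 8) and Piwil1 (chr5:128703271-128703347, intron, 3 of 3) lie downstream of the start. CpGs in lower case were not measured in any animal.
Mael: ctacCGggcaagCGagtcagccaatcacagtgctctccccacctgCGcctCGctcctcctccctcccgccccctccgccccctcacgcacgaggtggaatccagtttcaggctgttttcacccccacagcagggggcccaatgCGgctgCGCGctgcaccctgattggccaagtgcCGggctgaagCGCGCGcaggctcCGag
Asz1: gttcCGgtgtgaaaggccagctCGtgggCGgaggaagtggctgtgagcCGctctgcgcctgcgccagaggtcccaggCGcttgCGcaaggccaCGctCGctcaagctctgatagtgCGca
Tdrd9: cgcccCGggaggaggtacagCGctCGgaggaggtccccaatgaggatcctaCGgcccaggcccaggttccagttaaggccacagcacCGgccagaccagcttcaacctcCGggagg
Tdrd1: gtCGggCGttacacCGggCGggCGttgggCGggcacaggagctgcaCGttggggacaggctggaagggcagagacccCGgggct
Piwil1: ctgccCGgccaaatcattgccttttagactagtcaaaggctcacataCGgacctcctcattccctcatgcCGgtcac

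The methylation level of a gene is the unweighted mean percentage of methylated reads over the CpGs shared by all 10 animals. Most gene starts in spermatozoa were nearly unmethylated: 88.6% of the 13213 protein-coding starts had a mean level under 5%, 8.23% lay between 5% and 60%, and 3.13% lay above 60%. Of the 8 piRNA genes with 3 or more shared CpGs, 2 lay under 5%, 5 between 5% and 60%, and 1 above 60%. The range over the 10 animals had a median of 25.1 percentage points for these 8 genes, against 1.5 for all starts and 16.0 for the 1088 starts with a level between 5% and 60%. A range of more than 10 percentage points was found in 6 of the 8 piRNA genes, in 8.27% of all starts and in 68.3% of those between 5% and 60%. Wide ranges were thus also common among other starts of intermediate level.

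**Figure D1:**
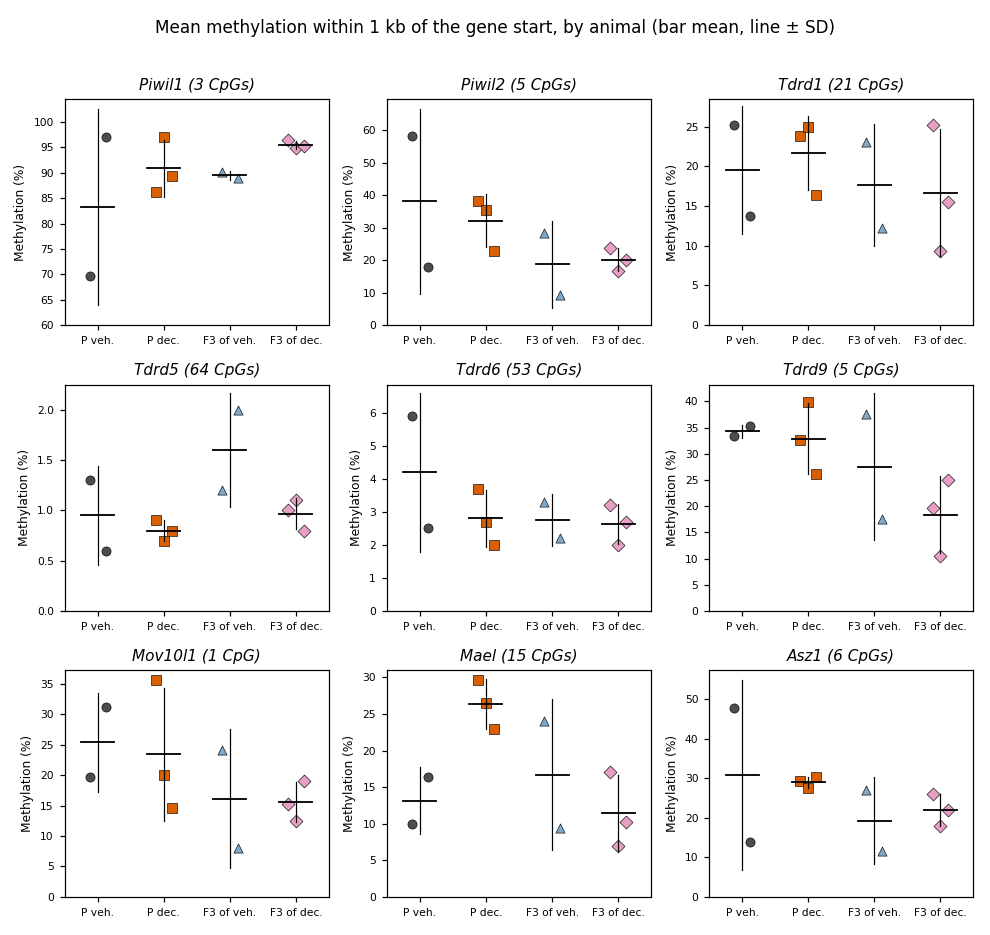
Methylation level (%) of each piRNA gene start in the 10 animals, 1 point per animal, for the P-generation (P veh., vehicle control; P dec., decitabine) and its F3 descendants, with the group mean (horizontal line) and SD (vertical line). Each panel has its own scale; the Mael levels of D10, D11 and D13 sit between 22.9% and 29.7%, above C8 and C14, and the remaining panels show mostly overlapping groups.

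Among the PIWI genes, the Piwil1 intron was highly methylated in every animal. The level was 69.7% in C8 and 97% in C14, 86.3%, 97.1% and 89.3% in D10, D11 and D13, 90.1% and 88.9% in F3C9 and F3C30, and 96.4%, 94.9% and 95.2% in F3D1, F3D7 and F3D31. C8 was the low animal, and its value rested on the CpG 817 bp downstream (chr5:128703341), where 41.7% of 12 reads were methylated (95% Wilson interval 19.3% to 68.1%) against 82.4% to 100.0% in the other animals. In the F3-generation the groups did not overlap, with a difference of 6.01 ± 0.735 percentage points (SE; n = 3 and 2). Piwil2, upstream of its start, was intermediate. Its level was 58.3% and 17.9% in the vehicle-control animals, 38.3%, 35.6% and 22.8% in the decitabine treated animals, 28.3% and 9.30% in F3C9 and F3C30, and 23.7%, 16.7% and 20.2% in F3D1, F3D7 and F3D31. Both vehicle-control animals lay outside the range of the decitabine treated animals, C8 above and C14 below it. The CpG 163 bp upstream (chr14:70429546) had the widest range of any named CpG, from 6.45% of 31 reads in F3C30 to 87.5% of 16 reads in C8.

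Of the Tudor genes, Tdrd5 and Tdrd6 were nearly unmethylated and Tdrd1 and Tdrd9 intermediate. Tdrd5 had levels of 0.60% to 2.0% in the 10 animals, and 61 of its 64 shared CpGs had a mean under 5%. Tdrd6 had 2.0% to 5.90%, with 40 of 53 CpGs under 5%. These windows were also the most CpG-rich, with 109 and 119 CpGs in the reference and an observed to expected CpG ratio of 0.74 and 0.64, against 0.20 to 0.61 in the other 8 windows. The CpG of Tdrd5 with the highest mean lay 458 bp upstream (chr1:156304122), with 23.4% of 64 reads in C8, 34.5% of 87 reads in F3C9 and 0% to 11.8% in the other animals. At Tdrd6 it lay 949 bp downstream in a coding exon (chr17:43629350), with 57.9% of 19 reads in C8, 16.4% in C14, 1.89%, 4.76% and 0% in D10, D11 and D13, and 0% to 16.7% in the F3-generation.

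Tdrd1 had a level of 25.2% in C8, 13.8% in C14, 23.8%, 24.9% and 16.4% in D10, D11 and D13, 23.1% and 12.2% in F3C9 and F3C30, and 25.2%, 9.40% and 15.5% in F3D1, F3D7 and F3D31. The groups overlapped in both generations, and all group means lay between 16.7% and 21.7%. In the coding exon of Tdrd9 the level was 33.4% and 35.2% in vehicle-control animals and 32.6%, 39.8% and 26.2% in decitabine treated animals. In the F3-generation it was 37.5% and 17.6% for the vehicle-control descendants and 19.7%, 10.5% and 24.9% for the decitabine descendants. All 3 decitabine descendants lay below all 3 decitabine treated animals, with a difference of -14.4 ± 5.75 percentage points (SE).

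After decitabine treatment, Mael differed most from the vehicle controls. Its level was 9.90% in C8 and 16.4% in C14, and 29.7%, 26.5% and 22.9% in D10, D11 and D13. The means were 13.1% ± 4.59 (SD, n = 2) and 26.4% ± 3.42 (SD, n = 3), a difference of 13.2 ± 3.80 percentage points (SE), and the groups did not overlap. In the F3-generation the level was 24.0% and 9.40% in the vehicle-control descendants and 17.1%, 7.0% and 10.2% in the decitabine descendants. These groups overlapped, and the difference was -5.29 ± 7.87 percentage points. The decitabine descendants lay below the decitabine treated animals, by 14.9 percentage points (SE 3.57). Asz1 had 47.8% in C8 and 13.9% in C14 on either side of 29.2%, 27.5% and 30.3% in D10, D11 and D13. Its F3 levels were 27.0%, 11.5%, 26.0%, 17.9% and 22.0% in F3C9, F3C30, F3D1, F3D7 and F3D31. The decitabine descendants were again below the decitabine treated animals, by a difference of -7.02 ± 2.47. The single shared CpG of Mov10l1 (chr15:88983663) had 19.7% and 31.2% in vehicle-control animals, 35.7%, 20% and 14.6% in decitabine treated animals, 24.2% and 8.11% in F3C9 and F3C30, and 15.2%, 12.5% and 19.2% in F3D1, F3D7 and F3D31, from 16 to 66 reads per animal. These groups overlapped in both generations.

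The animals recurred at the ends of these ranges. Over the 9 genes C8 was highest in 4 and lowest in 1, D10 and D11 were highest in 2 each, and F3C30 was highest in 1 and lowest in 3. F3D7 was lowest in 3, and C14 and D13 were lowest in 1 each. Ties at 1 decimal went to the animal listed first: C8 over F3D1 in Tdrd1 (25.2%) and D13 over F3D7 in Tdrd6 (2.0%). The 6 piRNA genes of intermediate level (Piwil2, Tdrd1, Tdrd9, Mov10l1, Mael and Asz1) had a median of 29.3% in C8 and 17.2% in C14. In D10, D11 and D13 it was 31.2%, 27.0% and 22.8%. Of the F3 animals, F3C9 and F3C30 had 25.6% and 10.4%, and F3D1, F3D7 and F3D31 had 21.7%, 11.5% and 19.6%. Both measures were low in C14, F3C30 and F3D7: in these animals the imprinted starts had a median of 6.60%, 7.60% and 8.40%, against 10.5% to 15.4% in the other 7. Single imprinted starts did not all follow this order. Peg10 was lowest in these animals, at 3.5%, 4.5% and 5.1%. Airn, however, had 18.4% in C14 and 0% in C8, and Peg3 had 17.3% in F3D7 and 8.7% in F3D31. In D10, D11 and D13 the imprinted median was 12.9%, 14.7% and 12.0%, above the 11.5%, 8.40% and 10.5% of F3D1, F3D7 and F3D31. The part of other cells' DNA in the levels of the piRNA genes was not tested.

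**Figure D2:**
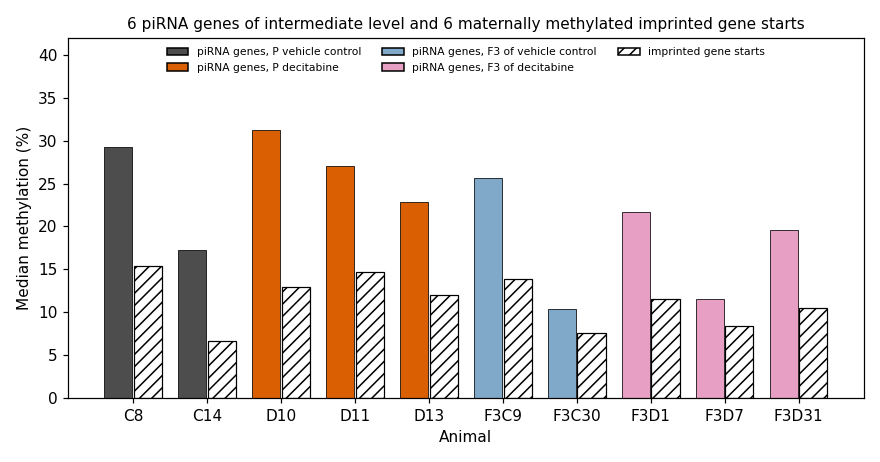
Median methylation (%) per animal of the 6 piRNA gene starts of intermediate level (filled bars, coloured by group) and of 6 maternally methylated imprinted gene starts (hatched bars). Both bars are lowest in C14, F3C30 and F3D7, at 10.4% to 17.2% for the piRNA genes and 6.60% to 8.40% for the imprinted starts. The bars are medians, and single imprinted starts did not all follow this order.

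To ask whether decitabine changed whole gene starts, the log2 ratio of methylated to unmethylated reads, summed over the shared CpGs with 1 added to each, was fitted with limma over all 13213 starts. No piRNA gene passed an adjusted p of 0.05 in any of the 5 comparisons, and neither did any other start (0% called, 0 of 13213 each time). Over all starts, 1027 had an unadjusted p under 0.05 for decitabine against vehicle control in the P-generation and 369 for their descendants in the F3-generation, and of the 8 piRNA genes 0 did in either comparison. In the P-generation the log2 differences of the 8 genes ran from -0.50 to 1.22 with a median of -0.08, against a median of -0.17 over all starts, and 4 were positive. In the F3-generation they ran from -0.85 to 1.22 with a median of -0.19, against 0.06 over all starts, and 3 were positive. Neither set of values stood on 1 side of 0.

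Mael had the largest difference in the P-generation, 1.22 on the log2 scale (SE 0.57, limma adjusted p = 0.645), and it kept this direction when any 1 animal was left out. In the F3-generation the log2 difference of Mael was -0.58 (SE 0.57, limma adjusted p = 0.999), and without F3C9 it was 0.03. The test of the change between generations, decitabine effect in F3 minus decitabine effect in P, gave -1.79 for Mael (SE 0.80, limma unadjusted p = 0.0456, adjusted p = 0.854), and across all starts 734 had an unadjusted p under 0.05. Piwil1 had the largest F3 difference, 1.22 (SE 0.81, limma adjusted p = 0.999), where its groups did not overlap. The P differences of the other 7 genes ran from -0.50 for Tdrd5 (SE 0.43) and -0.34 for Tdrd6 (SE 0.47) to 0.22 for Tdrd1 (SE 0.61). C8 and C14 lay far apart in Piwil1, Piwil2 and Asz1, but not in Tdrd9 (33.4% and 35.2%). Without C8 the log2 difference turned to 0.93 in Asz1 (now over 16 shared CpGs in place of 6), -1.22 in Piwil1, 0.14 in Tdrd5 and 0.26 in Tdrd6. Without C14 it turned to -1.15 in Piwil2 and -0.40 in Tdrd1. Piwil2 also turned without D10 (-0.15) or D11 (-0.01), and Piwil1 without D11 (-0.57).

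Non-overlapping groups were counted separately, as they need no model. In the P-generation the treated and control animals did not overlap in 1 of the 8 genes (Mael), against 20.5% of all starts. In the F3-generation they did not overlap in 2 of 8 (Piwil1 and Tdrd5), against 18% of all starts. For Tdrd5 the difference was -0.609 ± 0.430 percentage points at a level near 1%. F3-generation and P-generation of the vehicle controls did not overlap in 0 of 8, against 30.9%, and those of the decitabine lineage in 3 of 8 (Tdrd9, Mael and Asz1, all lower in F3), against 15% of all starts. The first 2 counts were near the background. The other 2, 0 of 8 and 3 of 8, rest on few genes read in the same animals, and their distance from the background was not tested. Of the background starts 88.6% lay under 5%, and no share was counted for starts of intermediate level alone.

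The comparison of generations used the same fit. Between the decitabine treated animals and their F3-generation, 6 of the 8 log2 differences were negative, with a range of -1.42 to 0.85 and a median of -0.47, against 0.24 over all starts. Mael (-1.42, SE 0.51, limma unadjusted p = 0.016) and Tdrd9 (-1.20, SE 0.51, limma unadjusted p = 0.035) were the 2 genes with an unadjusted p under 0.05, as were 830 of all starts, and both had an adjusted p of 0.789. This comparison shares D10, D11 and D13 with the comparison in the P-generation. The fit treats the animals as independent, although F3D1 and F3D31 descend from D10 and F3D7 from D11. Its SE and p-values take no account of this descent. In the vehicle-control lineage 5 of 8 were negative, from -1.08 for Piwil2 (SE 0.80) to 0.50 for Tdrd5 (SE 0.47), with a median of -0.32 against -0.02 over all starts. There, 0 of the 8 genes and 734 of all starts had an unadjusted p under 0.05.

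**Figure D3:**
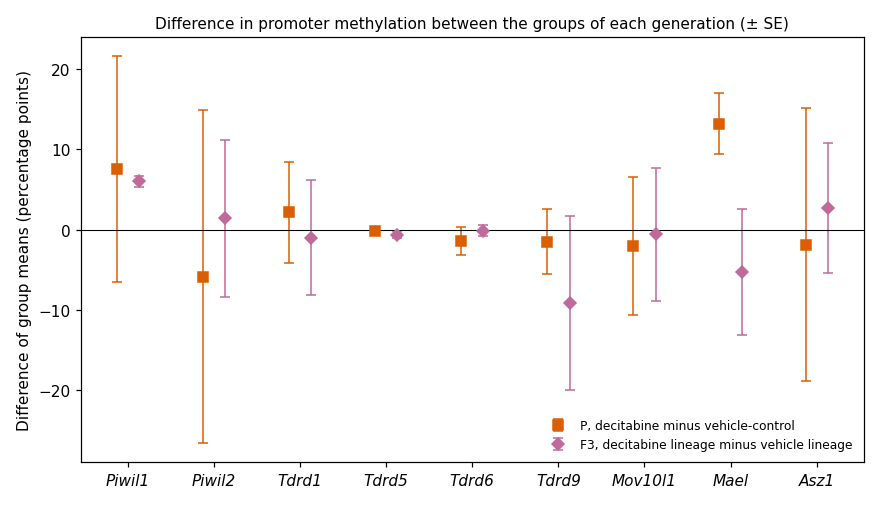
Difference in methylation level (percentage points) of each piRNA gene start between the groups of the P-generation (decitabine minus vehicle control, squares) and between their F3 descendants (diamonds), with the SE from the spread between animals (n = 3 and 2). Mael has the largest P difference, 13.2 ± 3.80, and the bars of Piwil2 and Asz1 in the P-generation span more than 15 percentage points on either side.

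Single CpGs were tested with a logistic model of the pooled reads and called with the study's thresholds, a q-value under 0.01 and a minimum difference of 25 percentage points, while the q-value (Benjamini-Hochberg) and the coverage rule (strands summed first) were not the study's own. In the P-generation 0 of 173 piRNA gene CpGs were called, against 6584 of 934227 CpGs (0.705%), and 38 of the 173 had an unadjusted p under 0.05, as did 161109 of all CpGs tested. In the F3-generation 0 of 202 were called, against 2494 of 1054272 (0.237%), and 43 had an unadjusted p under 0.05, as did 169742 of all. Fisher's exact test on the pooled reads called 0 as well, with 32 and 33 at an unadjusted p under 0.05 (120796 and 122757 of all). With a term for the spread between animals no CpG in the whole data was called, and 4 and 1 piRNA gene CpGs had an unadjusted p under 0.05 (10494 and 12765 of all). That test has 3 residual degrees of freedom per generation, so a q-value under 0.01 over all CpGs was hardly within its reach. No conclusion is drawn from its 0 calls. The P count depended on single animals: it was 9 of 173 without C14 (4.43% of all CpGs), 2 of 179 without D11 (0.628%) and 1 of 197 without C8 (0.258%). Without F3C30 the F3 count was 3 of 208 (1.33% of all CpGs).

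Just outside the threshold lay the Tdrd6 CpG 949 bp downstream, which was 24.5 percentage points lower after decitabine (q = 9.64e-05), and in the F3-generation the Asz1 CpG 119 bp downstream (chr6:18108942), which was 27.2 percentage points lower at a q-value of 0.0136. With a difference of 10 percentage points in place of 25, 7 of the 173 CpGs were called in the P-generation (2.13% of all CpGs), 3 hypermethylated in Mael, 1 hypomethylated in Tdrd5 and 3 hypomethylated in Tdrd6. The 3 Tdrd6 CpGs and the Tdrd5 CpG had their highest value in C8. At the Tdrd5 CpG 128 bp downstream (chr1:156303536), for example, 21.6% of 74 reads were methylated in C8, 2.78% of 72 in C14, and 0% of 57 to 67 reads in the decitabine treated animals, where the upper limit of the 95% Wilson interval was 5.42% to 6.31%. In the F3-generation 3 of 202 were called (0.953% of all CpGs), 2 in Tdrd1 with opposite signs (-14.6 and 15.0 percentage points) and 1 in Tdrd9 (-14.5).

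In Mael all 15 CpGs tested in the P-generation were higher after decitabine, by 3.55 to 18.5 percentage points of pooled reads with a median of 13.3. The groups did not overlap at 7 of them, and over all genes at 17 of 173 CpGs (9.83%), against 8.41% of all CpGs. The Mael CpGs lie from 26 bp upstream to 78 bp downstream, a span that MspI cuts. They were read mainly on the fragments from 25 bp upstream to 24 bp downstream and from 37 to 151 bp downstream. CpGs of 1 fragment are read on the same molecules. Neither the 15 nor the 7 are thus independent measurements. The 3 Mael CpGs called at 10 percentage points lay 12 and 26 bp upstream and 72 bp downstream. At the CpG 26 bp upstream (chr1:166238773) the values were 7.46% of 67 reads and 8.70% of 138 reads in C8 and C14, and 27.5% of 109, 19.6% of 102 and 23.4% of 77 reads in D10, D11 and D13 (q = 0.000598). The groups did not overlap here, and the F3 values of 13.3% to 17.5% lay between them. At the CpG 12 bp upstream (chr1:166238759) the difference was 18.5 percentage points (q = 0.000524), but the groups overlapped, since C14 had 18.5% and D13 16.7%. C8 had 1.59% of 63 reads there, while its CpGs 14 and 3 bp upstream, in the same short fragment, both had 19.0%. At the CpG 16 bp upstream (chr1:166238763), where C8 also had 19.0%, the difference was 13.3 percentage points (q = 0.0368).

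The CpGs of Mael tested in the F3-generation gave no such picture. Of 30, 4 were higher and 20 lower in the decitabine descendants and 6 were equal, with differences of -10.2 to 5.04 percentage points. The groups overlapped at every one of the 30. In Asz1, 5 of 16 CpGs did not overlap and were lower in the decitabine descendants, among them the one 119 bp downstream, where F3C9 had 62.0%, F3C30 41.2%, and F3D1, F3D7 and F3D31 31.7%, 25% and 16.7%. These 5 lie 70 to 119 bp downstream and are read largely on the same molecules, with 18 reads each in F3D31. The Asz1 level, which leaves them out because C8 had no data there, differed the other way in F3. That difference was 2.745 percentage points (SE 8.07), with overlapping groups. Over all genes 21 of 202 CpGs did not overlap (10.4%), 8 higher and 13 lower, against 9.71% of all CpGs.

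**Figure D4:**
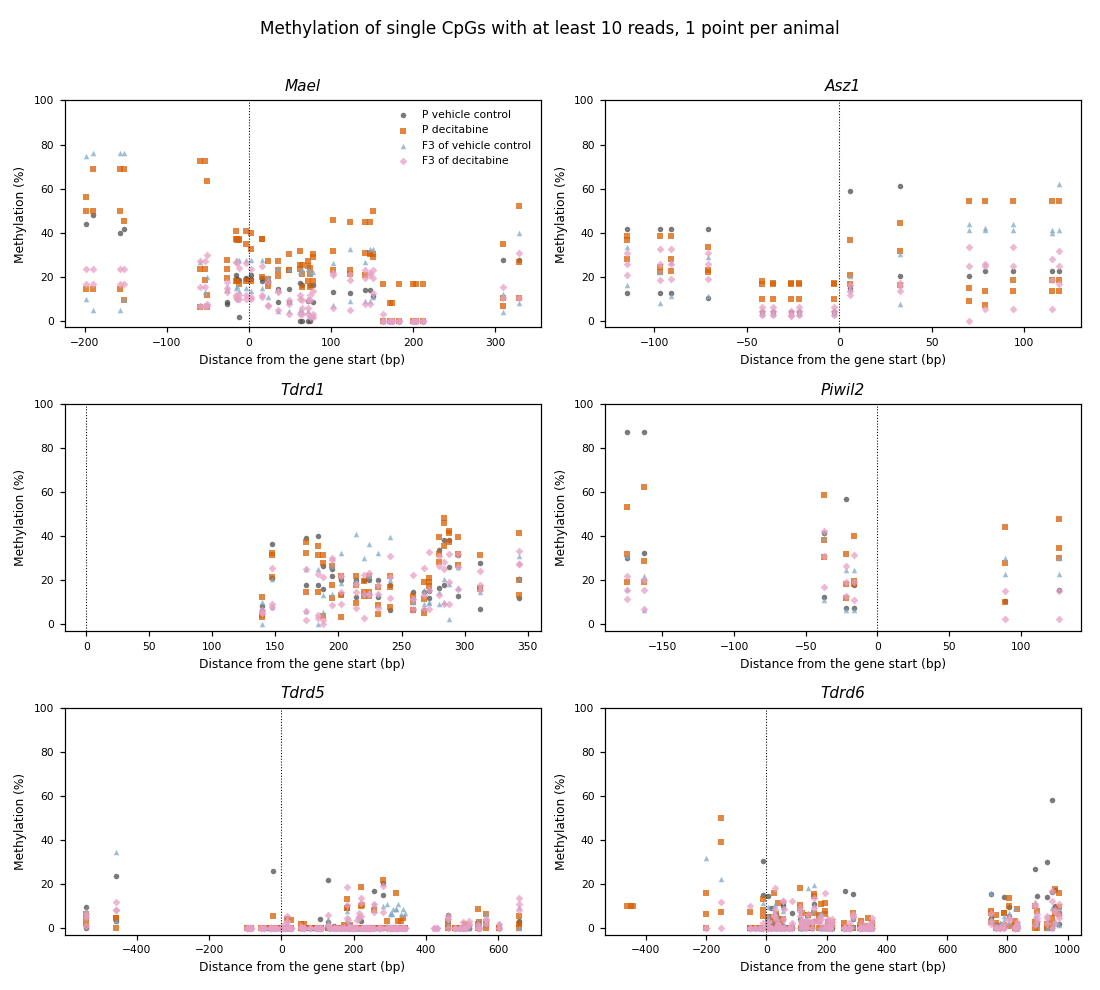
Methylation (%) of every CpG with at least 10 reads against its distance from the gene start (bp, negative is upstream) in 6 genes, 1 point per animal and CpG, coloured by group. In Mael the squares of decitabine treated animals lie mostly on top around the start, and in Tdrd5 and Tdrd6 most points lie near 0.

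The spread between animals was compared with that between CpGs of 1 MspI fragment. Over the 28 fragments with 2 or more CpGs measured in 5 or more animals, the spread of the animals' means was wider than the median spread of CpGs within an animal in 23, with medians of 6.60 and 5.14 percentage points. Each spread is the highest minus the lowest value, which grows with the number of values. Most fragments had more animals than CpGs, so the 2 spreads are not on equal terms and these counts are no test. Of these, 13 fragments from 6 genes were over 10% in some animal, a choice that favours a wide spread between animals. There it was wider in 13 of 13, with medians of 26.2 and 10.8 percentage points. Neighbouring CpGs of a fragment are read on the same molecules, so they are not independent measurements of an animal. In the fragment of Mael from 25 bp upstream to 24 bp downstream (50 bp, 6 CpGs), the mean was 16.2% and 19.3% in C8 and C14, 38.6%, 36% and 18.2% in D10, D11 and D13, 27.5% and 14.6% in F3C9 and F3C30, and 25.4%, 10.5% and 11.3% in F3D1, F3D7 and F3D31. The CpGs within an animal spread by a median of only 2.92 percentage points. Here D13 lay with the vehicle-control animals, whereas in the next fragment, from 37 to 151 bp downstream, it had 26.4%, D10 and D11 32.6% and 23.0%, and C14 14.3%. The next 7 Mael CpGs, from 164 to 212 bp downstream, were at 0% in 6 of the 8 animals with data, with 8.33% to 16.7% in D10 and 3.33% at 1 CpG in F3D7. Beyond them, at the CpG 329 bp downstream, the level was higher again, from 8.0% in F3C30 to 52.2% in D10.

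Upstream of Mael the spread between animals was wider still. In the fragment 197 to 26 bp upstream the means ran from 6.90% in F3C30 to 48.0% in F3C9, over the 7 animals with a value at all of its 6 CpGs (not C8, C14 and F3D31). Its CpGs also spread within an animal, by a median of 38.2 percentage points, against 41.1 between the animals' means. At the CpG 190 bp upstream (shown in the stretch above) F3C9 had 76.0% of 25 reads and D11 68.8% of 16. D10 had 50% of 22 reads and C14 48.0% of 25, while D13 had 14.3% of 21 and F3C30 5.00% of 20. At the CpGs 59 and 53 bp upstream the order was another one, with 72.7% of only 11 reads in D13. The other 7 animals with data had 6.25% to 27.3%, from 11 to 17 reads.

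The promoters of the RefSeq table (250 bp before to 50 bp after the RefSeq start, GRCm38.p6) were searched on both strands for 3 motifs. Of the 10 genes 8 matched the table, and Piwil2 and Tdrd6 did not. CACGTG, the E-box, was found in 5 of the 8 (Piwil1, Tdrd1, Tdrd9, Mov10l1 and Mael) and in 7.15% of all 32851 promoters. TCCCGC, the core of the E2F6 site, was found in 2 of 8 (Tdrd5 and Mael) and in 20% of all promoters. CCGG, the MspI site, was found in 5 of 8 (Piwil4, Tdrd1, Tdrd5, Mael and Asz1) and in 52.8%. None of the 3 overlaps another in its letters. These counts describe the sequence only.

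Another 15 genes of the pathway were read for comparison, of which 12 had measured CpGs. Their levels were like those of the 8 genes: 5 lay under 5% and 7 between 5% and 60%. In limma, 0 of the 12 passed an adjusted p of 0.05 in any comparison, with 2 at an unadjusted p under 0.05 for decitabine against vehicle control in the P-generation and 1 in the F3-generation. Of 240 single CpGs tested in the P-generation 4 were called (0.705% of all CpGs), all hypermethylated after decitabine and all in Fkbp6, a co-chaperone of piRNA loading, 234 to 351 bp downstream of its start. At chr5:135349710 the values were 14.3% in C8, 2.20% in C14 and 45.7%, 26.7% and 42.9% in D10, D11 and D13 (difference 33.9 percentage points, q = 9.95e-05). The level of Fkbp6 was 14.1% ± 11.4 (SD, n = 2) in vehicle-control animals, against 31.1% ± 1.39 (SD, n = 3) after decitabine and 14.3% ± 3.15 (SD, n = 3) in the decitabine descendants. The calls changed with the settings. The number called in Fkbp6 was 3 without D10, 5 without D13 and 3 with Fisher's exact test, and it changed without C8 or C14 too. With at least 20 reads 0 of the list were called, but only 185 CpGs were tested in place of 240. The term for the spread between animals also gave 0, as it did over all CpGs, where hardly any call was within its reach. The count over the list was 7 without D13 (0.876% of all CpGs) and 25 without C14 (4.43%), of which 4 were hypermethylated. In the F3-generation 0 of 262 CpGs were called with either pooled test (0.237% of all CpGs in the logistic model), and 6 without F3C30 (1.33%).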

How the data were processed

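RRBS of spermatozoal DNA from 10 mice was analysed, with groups taken from the sample labels. The authors trimmed reads, mapped them to mm10 and deposited methylated and unmethylated read counts per CpG cytosine and animal, strands separate, unnormalized, unfiltered and not pooled. The submitters' processing notes name CASAVA 1.8.2, Trim Galore 0.3.3, cutadapt 1.1 and Bismark 0.10.1. PCR duplicates cannot be recognised in such counts, so intervals cover counting error only. The genes, lists and tests were chosen with earlier results of these data known.

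The reads of both strands were summed and CpGs with at least 10 reads kept. Gene starts came from GENCODE M21 (protein-coding genes). Single CpGs with data from all 5 animals of a generation entered a likelihood-ratio test of a logistic model, with Benjamini-Hochberg q-values over all CpGs. methylKit itself was not used. This model holds no spread between animals. Gene starts with at least 3 CpGs shared by 10 animals were tested with limma 3.58.1 (trend, 1 fit of 4 groups, Benjamini-Hochberg). The SE of a difference of levels came from the SDs of both groups. Named CpGs were those called, the highest and the most variable of each gene, and, chosen after their values were seen, those just outside the threshold or used to describe a fragment. Python 3.11.15, scipy 1.17.1 and R 4.3.3 were used. Both tests were run on simulated counts with known differences. The single-CpG counts held no spread between animals and the limma counts less than the fitted spread. These runs therefore do not show how the tests behave on these data. Alternatives were other coverage minimums, windows, thresholds, tests, added counts and starts, weights per animal, and leaving out each animal.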

Additional observations from a re-analysis of the deposited data

How the results depend on the processing

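No piRNA gene passed limma's adjusted p of 0.05 in any of 114 combinations of setting and comparison. Over all gene starts, limma called 359 for decitabine against vehicle control in the P-generation without C14 and 1 without D10. CpGs of the piRNA genes called in the P-generation were 0 in the reported test, 7 with a difference of 10 percentage points, and 0 to 9 with 1 animal left out. For the F3-generation they were 1 with a window of 2 kb (in Tdrd6), 3 with 10 percentage points, 1 with a q-value of 0.05 (in Asz1), and 0 to 3 with 1 animal left out. Of 428 log2 differences of single genes under alternatives, 20 reversed, none of them called. Those not due to a left-out animal were Tdrd6 in P at 0.22 (2 kb), Asz1 in F3 at -0.47 (CpGs in 8 of 10 animals), Piwil2 in P at -5.83 percentage points (mean percentage) and Piwil1 in P at -0.07 (weights per animal), and the cause was not tested. For Asz1 that setting took in 16 CpGs in place of 6, since only C8 had no data at the others. With 1 animal left out the P differences ran from -1.06 to 0.14 for Tdrd5, -1.22 to 1.32 for Piwil1, -1.45 to 0.93 for Asz1, -1.15 to 1.24 for Piwil2, -0.95 to 0.26 for Tdrd6 and -0.40 to 0.85 for Tdrd1. The F3 differences ran from -1.18 to 0.03 for Mael, -0.47 to 0.91 for Asz1, -0.55 to 1.33 for Piwil2, -0.47 to 0.16 for Tdrd6 and -0.70 to 0.24 for Tdrd1. Leaving out an animal could also change which CpGs were shared by the rest. The -0.47 of Asz1 came without C8, a P animal, and again with 16 CpGs in place of 6. The median level over the genes was 20.4%, and 19.3% to 21.6% with 1 animal left out. The mean level of Tdrd6 was 8.5% with a window of 2 kb, against 3.04%. The Mael level difference was 11.5 to 16.5 percentage points in P with 1 animal left out, and in F3 it was 2.0 without F3C9 and -12.6 without F3C30. Samples were not paired by replicate number, since no compared groups share 2 of them. Paired by the ancestor as a block, 0 genes were called between generations in either lineage. Depth limits single CpGs, with as few as 10 reads behind a value. With a minimum of 5 or 20 reads, 0 CpGs of these genes were called in either generation.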
